A study of Zea mays with 15 samples.

Results

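The binding sites of ARF4 (GRMZM2G034840) and ARF29 (GRMZM2G086949), a pair of closely related maize AUXIN RESPONSE FACTORS (ARFs), were compared through their DAP-seq peak lists. The ARF4 list held 28671 peaks and the ARF29 list 14157, together 42828 of the 386300 peaks in the 14 ARF lists. An ARF4 peak and an ARF29 peak were called shared when their summits were at most 100 bp apart, and every remaining peak was called ARF4-only or ARF29-only. All 42828 peaks entered the comparison. In DAP-seq, a purified tagged protein is mixed with a sheared genomic DNA library free of chromatin, and the DNA fragments that it retains are sequenced. Both libraries used genomic DNA from young ears (1-3 cm, field grown) of the maize inbred B73 and ARFs fused to glutathione S-transferase (GST) purified from E. coli. The control was a GST-HALO protein made in a wheat germ system, so it differed from the ARFs in source as well as in sequence. There was 1 library per ARF, and the labels place no ARF in a clade.

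ARFs are plant transcription factors that mediate the transcriptional response to the hormone auxin. They bind DNA through a B3 domain, which recognizes auxin response elements that carry a TGTC core, and they can bind a pair of such elements as dimers. The study places ARF4 and ARF29 in the same sub-clade, and it asked whether members of the family select different sites. DAP-seq reads the binding preference of the isolated protein, without the chromatin, partner proteins or expression pattern that act in the plant.

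With the full lists, 12005 ARF4 peaks (41.9%) and 11737 ARF29 peaks (82.9%) were shared, which left 16666 ARF4-only and 2420 ARF29-only peaks. The counts differ between the lists because a peak can have several partners. Of the shared ARF4 peaks, 11305 had 1 ARF29 partner, 696 had 2 and 4 had 3. Of the shared ARF29 peaks, 10775 had 1 ARF4 partner, 953 had 2, 8 had 3 and 1 had 4. Matching each peak at most once, nearest summits first, gave 11404 pairs. Ranges after a percentage are 95% Wilson intervals over peaks. They cover counting error only, because the peaks of 1 library are not replicates. Even that error may be larger than shown, because the libraries carried no molecular identifiers to tell PCR copies apart and nearby peaks can share reads. With 1 library per ARF no test between ARFs was possible, so each difference is one between these lists, and variation between libraries and binding by the proteins cannot be told apart. A region with a peak in 1 list only may also hold a signal below the calling limit in the other library, which the lists do not show.

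Most of the strongest sites of each protein were found in the list of the other, and nearly all of those of ARF29. Signal is the number of reads that the peak caller assigned to a peak, and it was not scaled between libraries. Peaks were therefore ranked within their own list as a percentile, where 100 is the strongest. In the strongest signal decile of the ARF4 list, 88.9% of peaks (87.7–90.01%) had an ARF29 partner, and in that of the ARF29 list 99.4% (98.8–99.7%) had an ARF4 partner. In the weakest decile the shares were 25.9% (24.3–27.5%) for ARF4 and 55.7% (53.1–58.3%) for ARF29.

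The shape of this gradient differed between the lists. For ARF29 the shared portion was higher in each successive decile from weak to strong, at 55.7%, 67.2%, 73.01%, 78.0%, 83.3%, 87.8%, 92.7%, 94.5%, 97.4% and 99.4%. For ARF4 it was level over the weaker deciles and steep over the stronger ones, at 25.9%, 25.4%, 24.1%, 27.1%, 29.99%, 35.9%, 42.4%, 52.0%, 67.1% and 88.9%. The 4 weakest deciles of the ARF4 list lay between 24.1% and 27.1%, and the 4 strongest between 42.4% and 88.9%.

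**Figure D1:**
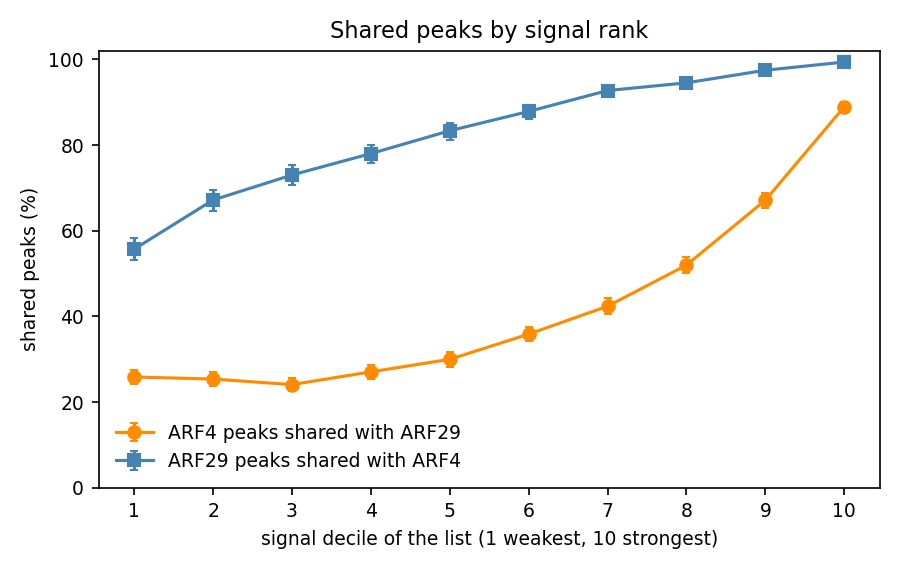
Share of peaks (%) with a partner in the other list, by signal decile of each list from weakest (1) to strongest (10), for ARF4 and ARF29. Bars on the points are 95% Wilson intervals; ARF29 runs between 55.7% and 99.4%, and ARF4 stays near 25% over the weaker deciles and reaches 88.9% in the strongest.

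Peaks present in both lists ranked higher than peaks present in 1. Shared ARF4 peaks had a median percentile of 69.7 (quartiles 40.9 to 87.9), a median signal of 57.8 reads and a median −log10 q of 11.6, where q is the false discovery rate of the peak. ARF4-only peaks had a median percentile of 38.4 (19.5 to 60.95), 40 reads and a −log10 q of 6.81. Shared ARF29 peaks had a median percentile of 56.5 (31.6 to 79.0), 54.9 reads and a −log10 q of 9.51, against 22.8 (9.56 to 41.1), 38.0 reads and 6.38 for ARF29-only peaks. The quartile ranges of shared and unshared peaks overlapped in both lists, so signal alone did not separate them. The strongest decile of the ARF4 list contained 21.2% of the shared ARF4 peaks and 1.91% (318 peaks) of the ARF4-only peaks. For ARF29 it contained 11.98% of the shared peaks and 0.372% (9 peaks) of the ARF29-only peaks.

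Because the ARF4 list was the longer, the lists were next reduced to equal numbers of their strongest peaks. The share of ARF4 peaks with a partner was 43.4% at 500 peaks per list, 45.7% at 1000, 52.0% at 2000, 57.2% at 5000, 59.7% at 7520 (the length of the shortest list of the series, ARF18) and 57.7% at 14157, where the ARF29 list is whole. The share of ARF29 peaks was 43.8%, 47.4%, 52.4%, 58.0%, 60.5% and 58.9% at the same depths. At equal depth both shares count nearly the same pairs over the same number of peaks, so they are almost equal by construction. They were lower at 500 and 1000 peaks than at 5000 and above.

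At 500 to 2000 peaks, most peaks that were not matched at equal depth lay further down the list of the other protein. This still held for ARF29 at 7520, where 60.5% were matched at equal depth and 93.8% in the whole ARF4 list. It did not hold for ARF4 at 7520, with 59.7% and 72.6%, so most of its unmatched peaks had no ARF29 partner at all. Of the 500 strongest ARF4 peaks, 98.6% had a partner somewhere in the whole ARF29 list, and of the 500 strongest ARF29 peaks, 99.6% had one in the whole ARF4 list. At 2000 the shares were 93.2% for ARF4 and 99.0% for ARF29, and at 5000 they were 80.5% and 96.3%. A partner in the whole list includes any among its strongest peaks, so these shares cannot lie below those at equal depth. Other lists held these peaks as well. Of the 500 strongest ARF4 peaks 99.4% were in the whole ARF16 list and 99.2% in the whole ARF34 list, and of the 7520 strongest 72.6% were in ARF29, against 93.0% in ARF34, 92.0% in ARF16 and 76.3% in ARF27. With whole lists on both sides ARF29 (41.9%) came after 3 other partners of ARF4, namely ARF34 (74.6%), ARF16 (68.0%) and ARF27 (54.0%), which are all longer lists.

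Set beside the other 12 lists at equal depth, ARF29 shared the largest portion of ARF4's strongest peaks at each of the 5 depths from 500 to 7520, with ARF16 next. At 500 the values were 43.4% (39.1–47.8%) for ARF29 and 41.4% (37.2–45.8%) for ARF16, whose intervals overlap. The intervals also overlapped at 1000 (45.7% and 44.0%) and were apart from 2000 on, with 52.0% (49.8–54.2%) for ARF29 and 46.0% (43.9–48.2%) for ARF16. At 7520 they were 59.7% (58.6–60.8%) and 51.01% (49.9–52.1%). Both shares are over the same ARF4 peaks, a pairing that comparing the intervals ignores.

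From the side of ARF29 the order of partners changed with depth. Among its 500 strongest peaks, ARF4 held 43.8% (39.5–48.2%), against 46.8% (42.5–51.2%) for ARF35, 45.2% for ARF16 and 44.2% for ARF18, and these neighbours in the order could not be separated. At 1000 ARF4 held 47.4% (44.3–50.5%) and ARF35 52.3% (49.2–55.4%), and at 2000 ARF4 held 52.4% (50.3–54.6%) and ARF35 54.5% (52.4–56.7%). ARF4 came first at 5000, with 58.0% (56.7–59.4%) against 55.9% (54.5–57.3%) for ARF35, and at 7520, with 60.5% (59.4–61.6%) against 56.5% (55.4–57.7%). The intervals of ARF4 and ARF35 were apart at 7520 only. Both shares are over the same ARF29 peaks, and comparing the intervals ignores this pairing. Peaks matched by ARF4 and not ARF35, and the reverse, numbered 418 and 460 at 2000, and 1096 and 989 at 5000. ARF35 has 9198 peaks in all, so at 7520 most of its list was in use.

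ARF4 and ARF35 matched partly different members of ARF29's strongest peaks. Among the 1000 strongest, 271 were matched by both, 203 by ARF4 and not ARF35, 252 by ARF35 and not ARF4, and 274 by neither. Of the 252 peaks matched by ARF35 and not by ARF4, 248 had a partner in the whole ARF4 list, where their median percentile was 91.2. These sites were thus mostly strong in the ARF4 list too, but outside its 1000 strongest.

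**Figure D2:**
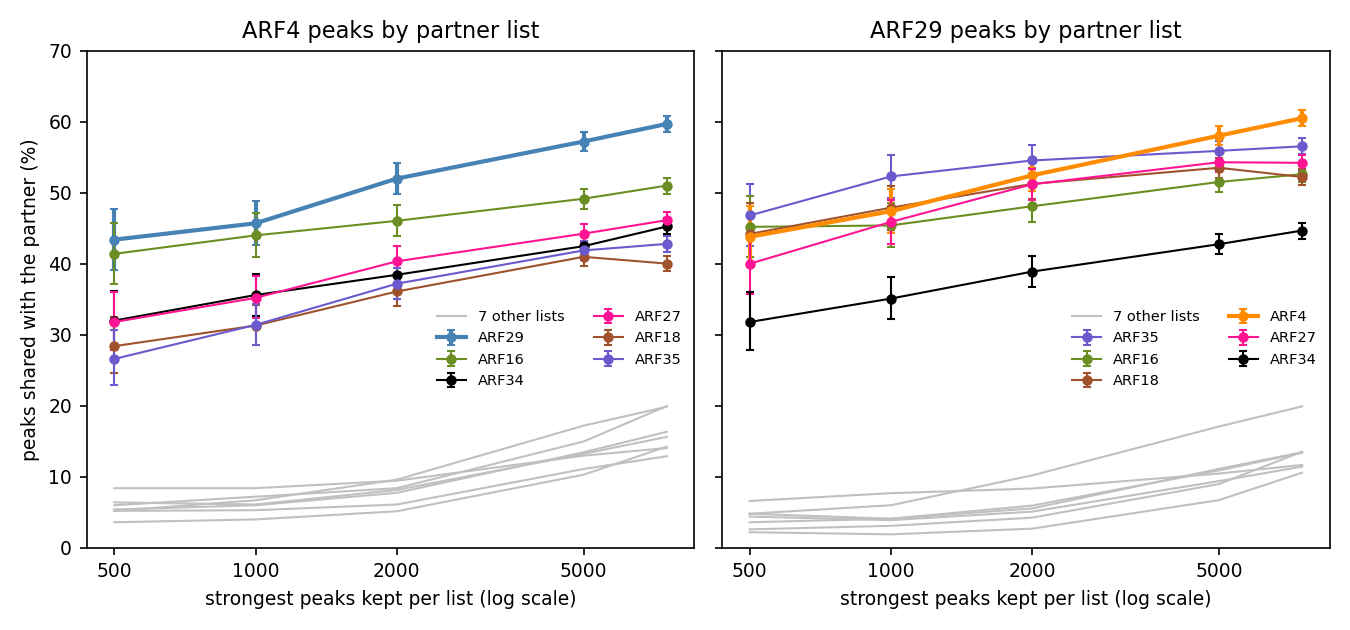
Share (%) of the strongest peaks of ARF4 (left) and of ARF29 (right) that have a partner among the equally many strongest peaks of another list, against the number of peaks kept per list (log axis). ARF29 is the highest line for ARF4 at each depth, and for ARF29 the ARF35 line lies above ARF4 at 500 to 2000 peaks and below it at 5000 and 7520.

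At shared sites the signals of the pair ran in a similar but far from identical order. Across the 11737 shared ARF29 peaks, the Spearman rho of their signal with that of the nearest ARF4 peak was 0.55, and across the 11404 matched pairs it was 0.57. These are descriptions across peaks, which are not independent samples. The rho of ARF4's signal with that of another list at their own shared peaks was 0.48 with ARF16, 0.40 to 0.43 with ARF18, ARF27, ARF34 and ARF35, and 0.14 to 0.25 with the remaining 7 lists. For ARF29 it was 0.54 with ARF27, 0.53 with ARF35, 0.50 with ARF16 and with ARF18, 0.46 with ARF34, and 0.11 to 0.22 with the remaining 7. The value of the pair was thus close to those of ARF29 with ARF27 and ARF35, whose peaks are not the same set.

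Within matched pairs, the ARF4 percentile minus the ARF29 percentile had a median of 7.37 (quartiles −5.97 to 25.4) and a median absolute value of 17.0. In 3839 pairs (33.7%) the percentiles differed by no more than 10. In 1073 pairs (9.41%) they differed by more than 50, with ARF4 higher in 776 and ARF29 higher in 297. The percentiles are those of lists of unequal length, of which shared peaks make up 41.9% for ARF4 and 82.9% for ARF29.

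The pairs far apart in rank also differed in which other lists had a peak there. ARF35 had a peak at 28.5% (25.4–31.8%) of the 776 pairs that ranked higher in ARF4 and at 72.1% (66.7–76.9%) of the 297 that ranked higher in ARF29. ARF18 had one at 27.1% (24.1–30.3%) and 59.3% (53.6–64.7%) of these pairs, and ARF27 at 66.4% (63.0–69.6%) and 90.6% (86.7–93.4%). ARF39 was at 13.7% of the pairs higher in ARF4 and 27.6% of those higher in ARF29, ARF14 at 20.7% and 28.96%, and ARF25 at 32.6% and 42.1%. The intervals of these lists were apart as well. ARF10 ran the other way, with 44.1% (40.6–47.6%) of the pairs higher in ARF4 and 31.0% (26.0–36.5%) of those higher in ARF29. For reference, over all shared ARF4 peaks the shares were 47.9% for ARF35, 40.8% for ARF18, 78.6% for ARF27 and 19.6% for ARF39. They were 24.6% for ARF14, 36.8% for ARF25 and 40.6% (39.8–41.5%) for ARF10. The ARF10 share of the pairs higher in ARF4 thus overlapped that of all shared ARF4 peaks. Intervals overlapped for ARF7, ARF13, ARF34 and ARF36. ARF16 was close to level, at 90.9% (88.6–92.7%) and 87.2% (82.9–90.5%).

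The other 12 lists fell into 5 and 7 by how much they shared with the pair at equal depth. At 7520 peaks, ARF16, ARF18, ARF27, ARF34 and ARF35 shared 40.03–51.01% with ARF4 and 44.7–56.5% with ARF29, whereas ARF10, ARF7, ARF13, ARF39, ARF36, ARF14 and ARF25 shared at most 20.0% with ARF4 and at most 19.9% with ARF29. This division is a description of the shares and was made after they were seen.

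Shared sites were found in more of the other lists than unshared ones. The median number of other lists with a peak at the site was 5 for shared ARF4 and 5 for shared ARF29 peaks, against 2 for ARF4-only and 3 for ARF29-only peaks. None of the other 12 lists held 522 of the shared ARF4 peaks (4.35%) and 515 of the shared ARF29 peaks (4.39%), against 3844 ARF4-only peaks (23.1%, 22.4–23.7%) and 485 ARF29-only peaks (20.0%, 18.5–21.7%). These shares moved with the lengths of the lists: with every list at the shortest length they were 42.9% for ARF4-only and 29.6% for ARF29-only peaks. At the other extreme, all 12 held 589 shared ARF4 and 588 shared ARF29 peaks, against 17 ARF4-only and 14 ARF29-only peaks.

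Presence in other lists went with signal, so a lower rank and a narrower presence occurred together. ARF4-only peaks in no other list had a median percentile of 26.6 and ARF29-only peaks in no other list 14.9. Shared peaks in all 12 other lists had 90.7 in the ARF4 list and 91.2 in the ARF29 list. Within quintiles of the list by signal, presence was compared between shared and unshared peaks, and the difference varied with the list. In the quintile below the strongest of the ARF4 list, ARF10 was at 38.3% of shared and 37.9% of ARF4-only peaks. ARF13 was there at 17.7% and 17.6%. Intervals in that quintile overlapped for ARF7, ARF10, ARF13 and ARF36 and were apart for the remaining lists. Values for ARF16, ARF18 and ARF35 follow. In the strongest quintile of the ARF4 list, ARF18 had a peak at 54.2% (52.7–55.6%) of shared and 8.73% (7.29–10.4%) of ARF4-only peaks, and ARF16 at 96.8% (96.3–97.3%) and 85.4% (83.3–87.3%). In the weakest, ARF18 had one at 29.1% (26.8–31.5%) of shared and 4.44% (3.86–5.11%) of ARF4-only peaks, and ARF16 at 70.6% (68.2–72.9%) and 39.9% (38.5–41.4%). In the strongest quintile of the ARF29 list, ARF18 was at 75.2% (73.5–76.8%) of shared and 46.7% (32.9–60.9%) of 45 ARF29-only peaks, and in the weakest at 21.6% (19.7–23.6%) and 14.1% (12.1–16.3%). For ARF35 in the strongest quintile of the ARF29 list the intervals overlapped, at 82.1% (80.6–83.4%) of shared and 73.3% (59.0–84.0%) of ARF29-only peaks. Between the weakest and strongest quintiles of that list ARF35 was close to level, with overlapping intervals. From weaker to stronger, it was at 29.2% of shared and 29.5% of ARF29-only peaks, 37.5% and 39.9%, and 54.5% and 54.7%. Only in the weakest quintile were the ARF35 intervals apart, with the shared peaks higher. For ARF18 the intervals also overlapped in each quintile between the weakest and the strongest.

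ARF4-only and ARF29-only peaks were divided differently over the other ARFs. ARF35 had a peak at 7.42% (7.03–7.83%) of the ARF4-only peaks and at 28.1% (26.4–29.97%) of the ARF29-only peaks. ARF18 had one at 5.25% (4.92–5.60%) of ARF4-only and 20.0% (18.5–21.6%) of ARF29-only peaks. ARF27 had one at 36.4% (35.6–37.1%) of ARF4-only and 57.7% (55.7–59.6%) of ARF29-only peaks. ARF35, ARF18 and ARF27 thus occurred more often at sites of ARF29 that the ARF4 list lacked than at sites of ARF4 that the ARF29 list lacked.

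ARF10 was the list most unequal in the opposite direction, at 24.9% (24.3–25.6%) of ARF4-only and 11.7% (10.5–13.04%) of ARF29-only peaks, a difference of 13.3 points that was 4.19 points when sharing required 90% reciprocal overlap. ARF13 had a peak at 10.8% (10.3–11.2%) of ARF4-only and 6.86% (5.92–7.94%) of ARF29-only peaks. ARF16 differed less, at 54.2% (53.4–54.9%) of ARF4-only and 50.2% (48.3–52.2%) of ARF29-only peaks. The intervals overlapped for ARF34 (64.5% of ARF4-only and 63.6% of ARF29-only peaks), ARF39 (8.67% and 8.60%), ARF14 (13.4% and 14.7%) and ARF25 (18.8% and 17.5%). They were apart for ARF7 (12.9% and 10.6%) and ARF36 (14.4% and 11.7%). ARF34 has the longest list of the series (74603 peaks) and ARF18 the shortest, so the level of each share also moves with the length of the list it is taken from. The contrast between ARF4-only and ARF29-only peaks is within 1 list, but it moved with list length too. With every list at the shortest length, ARF4-only minus ARF29-only was −28.7 points for ARF18 (−14.7 with full lists) and −32.3 for ARF35 (−20.7). For ARF27 it was −18.8 (−21.3) and for ARF10 16.1 (13.3).

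The contrasts in ARF35, ARF18, ARF27 and ARF10 kept their direction at equal depth. With the ARF4 list cut to its 14157 strongest peaks, ARF35 was at 10.5% of the ARF4-only and 31.6% of the ARF29-only peaks, ARF18 at 6.58% and 24.1%, ARF27 at 45.8% and 63.2%, and ARF10 at 38.0% and 16.5%. At this depth the intervals were apart for each of the 12 lists, and all but ARF35, ARF18 and ARF27 were more often at ARF4-only peaks. ARF34 was at 76.9% of ARF4-only and 71.9% of ARF29-only peaks, and ARF39 at 12.8% and 10.2%. ARF14 was at 18.0% and 15.9%, the reverse of its order with full lists (13.4% and 14.7%). In the strongest quintile of each list, ARF35 was at 13.9% (12.1–15.9%) of 1248 ARF4-only peaks and at 73.3% (59.0–84.0%) of 45 ARF29-only peaks, and ARF10 at 52.2% (49.5–55.0%) and 13.3% (6.26–26.2%). In the weakest quintile, ARF35 was at 4.63% (4.04–5.31%) of 4187 ARF4-only and 16.7% (14.6–19.0%) of 1087 ARF29-only peaks. ARF10 was there at 12.3% (11.3–13.3%) of the ARF4-only and 10.9% (9.14–12.8%) of the ARF29-only peaks, with overlapping intervals, so the contrast in ARF10 was not detectable among weak peaks.

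**Figure D3:**
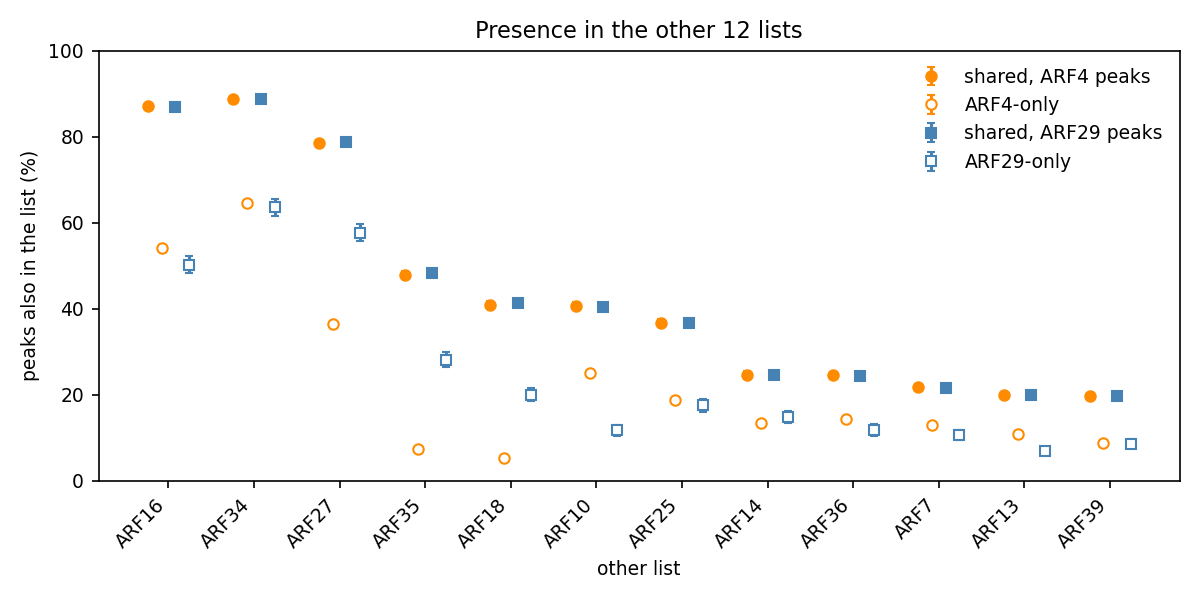
Share (%) of peaks that also have a peak in each of the other 12 lists, for shared ARF4, ARF4-only, shared ARF29 and ARF29-only peaks, with 95% Wilson intervals. The shared peaks of the pair coincide, whereas ARF29-only peaks exceed ARF4-only peaks in ARF18 (20.0% against 5.25%), ARF27 (57.7% against 36.4%) and ARF35 (28.1% against 7.42%) and fall below them in ARF10 (11.7% against 24.9%).

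The combinations of other lists at a site were counted next. Among shared ARF4 peaks the most frequent combination was ARF16, ARF18, ARF27, ARF34 and ARF35 together with none of the 7 (1337 peaks, 11.1%), followed by ARF16, ARF27 and ARF34 (1199 peaks, 9.99%). Among ARF4-only peaks the most frequent, after none at all, were ARF16 with ARF34 (2192 peaks, 13.2%), ARF16, ARF27 and ARF34 (1855 peaks, 11.1%) and ARF34 alone (1288 peaks, 7.73%). A further 497 ARF4-only peaks (2.98%) had ARF16 and ARF34 with all 7 of the more distant lists. Among ARF29-only peaks, ARF16, ARF27 and ARF34 (227 peaks, 9.38%) and the full set of 5 (183 peaks, 7.56%) led after none at all.

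How many of the 5 close lists held a site went with how often the pair shared it. Of ARF4 peaks in 0, 1, 2, 3, 4 and 5 of these lists, 12.3%, 19.2%, 26.5%, 43.9%, 71.9% and 91.8% had an ARF29 partner. Of ARF29 peaks in 0 to 5 of them, 53.1%, 64.9%, 78.6%, 84.5%, 88.6% and 93.3% had an ARF4 partner. Sites of all 5 lists were thus shared about equally often from both sides. The 5 lists were chosen for their high share with the pair, so the rise is not independent of that choice. Presence in other lists and sharing both went with signal as well, and their parts were not separated here.

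Sites common to all 7 of the more distant lists followed the difference between the whole lists. Of the 2348 ARF4 peaks at such sites, 1298 (55.3%, 53.3–57.3%) had an ARF29 partner, whereas of the 1355 ARF29 peaks at such sites, 1269 (93.7%, 92.2–94.8%) had an ARF4 partner, against 41.9% of all ARF4 and 82.9% of all ARF29 peaks. With the ARF4 list at the length of the ARF29 list, 64.6% (62.3–66.8%) of 1716 such ARF4 peaks were shared, against 57.7% (56.9–58.5%) of all ARF4 peaks at that length.

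Most matched summits of the pair lay at a single distance. Of the 11404 matched pairs, 7577 (66.4%) had summits exactly 4 bp apart. The next most frequent distance from a shared ARF29 peak to its nearest ARF4 summit was 18 bp, with 145 peaks (1.24%), and 50 summits coincided. The distance of 4 bp was not particular to this pair. Of ARF29 peaks with a partner in the list, 66.6% were 4 bp from the ARF18 summit and 60.6% from the ARF16 summit, against 64.6% for ARF4. This distance was the most frequent at weak and at strong sites, somewhat more so at strong ARF29 sites. From the weakest to the strongest quintile of the ARF29 list, 59.9% (57.6–62.2%), 64.01%, 63.8%, 66.001% and 67.2% (65.4–68.9%) of shared peaks were 4 bp from the nearest ARF4 summit. Over the quintiles of the ARF4 list the share was 60.8–63.6%. ARF29 lay on the side of the higher coordinate in 3772 of these pairs and on the lower side in 3805, so the offset had no direction on the chromosome. The peak caller, GEM, places a summit with the help of short sequence words that it finds enriched in each library. The part of the caller and that of the protein in the offset cannot be told apart from the lists.

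The remaining 3827 matched pairs had nearly the same ranks. Their median percentiles were 71.8 in ARF4 and 54.4 in ARF29, against 70.1 and 58.3 for the pairs 4 bp apart, and the rho of signal was 0.53, against 0.59. Both kinds of pair were present in a median of 5 other lists.

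The pairs 4 bp apart were used as an axis that starts at the ARF4 summit (0) and runs towards the ARF29 summit (+4, by construction), and summits of the other lists within 20 bp were placed on it. ARF16 was at 0 in 90.8% of 5601 sites and ARF18 at 0 in 93.0% of 2673. ARF34 was at −1 in 88.5% of 5617 sites, and ARF27 at +1 in 83.3% of 4957. ARF35 was at +3 in 85.5% of 2995 sites, 1 bp from the ARF29 summit. ARF7, one of the 7 more distant lists, was also at +3, in 76.6% of 1148 sites. The other 6 had no position that held more than 27.0% of their summits, for example ARF10 with 21.3% of 1858 at −6. ARF16, ARF18, ARF34, ARF27, ARF35 and ARF7 thus stood mostly at 4 positions, with ARF16 and ARF18 on one and ARF35 and ARF7 on another. The shares are over summits within 20 bp at pairs chosen for their distance of 4 bp. Over all ARF4 peaks with a partner in the list, the most frequent distance held 65.8% of peaks for ARF16 (0 bp), 58.9% for ARF18 (0 bp), 63.7% for ARF34 (1 bp), 51.4% for ARF27 (1 bp), 53.0% for ARF35 (3 bp) and 43.6% for ARF7 (3 bp).

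**Figure D4:**
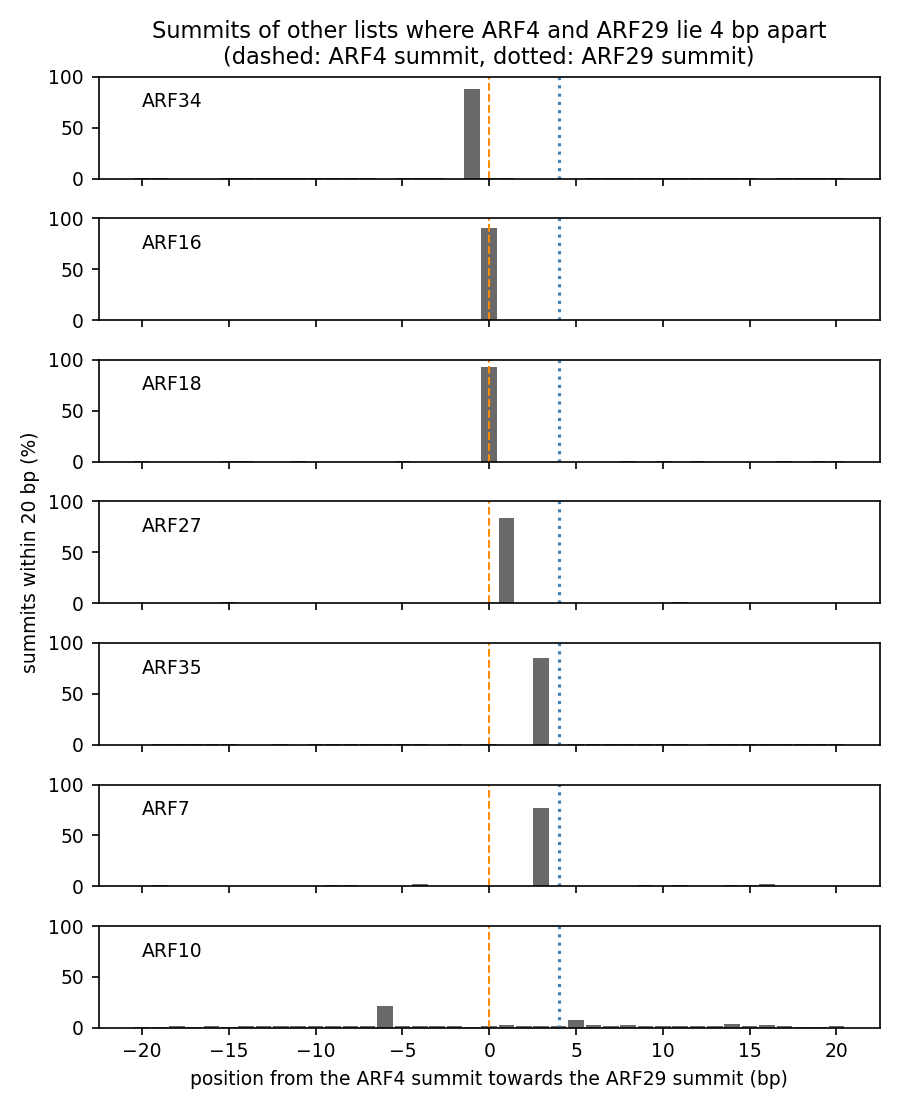
Position (bp) of the summits of ARF34, ARF16, ARF18, ARF27, ARF35, ARF7 and ARF10 on the axis from the ARF4 summit (dashed, 0) towards the ARF29 summit (dotted, 4 bp away) at sites where these are 4 bp apart, as a share (%) of the summits within 20 bp. ARF16 and ARF18 stand at the ARF4 summit and ARF35 and ARF7 1 bp short of the ARF29 summit, whereas the ARF10 summits are spread with 21.3% at −6.

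The 100 bp limit cut through few peaks. For ARF4, 84 peaks had their nearest ARF29 summit at 91–100 bp, just inside the limit, and 81 had it in the 10 bp beyond, just outside. For ARF29 the counts were 60 just inside and 51 just outside. Most unshared peaks lay much further away. The median distance to the nearest summit of the other list was 39.5 kb for ARF4-only and 14.7 kb for ARF29-only peaks, and 7.11% of ARF4-only and 13.9% of ARF29-only peaks lay within 1000 bp of one. The distance of an ARF29-only peak is taken to the longer of the lists.

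Both lists held closely spaced peaks of their own. A neighbour of the same list lay within 100 bp of 1782 ARF4 peaks (6.22%) and 984 ARF29 peaks (6.95%). Of ARF4 peaks with such a neighbour 82.2% were shared, against 39.2% of those without one. Of ARF29 peaks with one 97.5% were shared, against 81.8% without. Whether the extra summits in such groups account for this was not tested.

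Shared and unshared peaks were spread similarly over the chromosomes. The terminal 10% at both chromosome ends, together the outer 20%, held 29.9% (29.1–30.7%) of shared ARF4 peaks and 26.4% (25.8–27.1%) of ARF4-only peaks. They held 29.7% (28.9–30.5%) of shared ARF29 peaks and 28.3% (26.5–30.1%) of ARF29-only peaks, whose intervals overlap. The middle 20% held 13.5% of shared ARF4 and 15.2% of ARF4-only peaks, and 13.4% of shared ARF29 and 15.1% of ARF29-only peaks. All 4 classes were thus denser towards the chromosome ends, ARF4-only peaks slightly less so than shared ones.

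Along the chromosome, the share of ARF4 peaks with an ARF29 partner was 43.6% (41.99–45.1%) in the first of 10 equal segments, lowest in the fourth at 36.3% (34.1–38.5%) and 46.1% (44.6–47.6%) in the last. For ARF29 the shares were all between 80.4% and 84.0%. Among ARF4 peaks above the median signal of their list the share was 52.5–60.4% over the segments, and among those below it 21.2–30.2%, a gap between ranks wider than that between segments. For ARF29 it was 92.5–95.6% above the median signal and 68.4–73.2% below it.

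**Figure D5:**
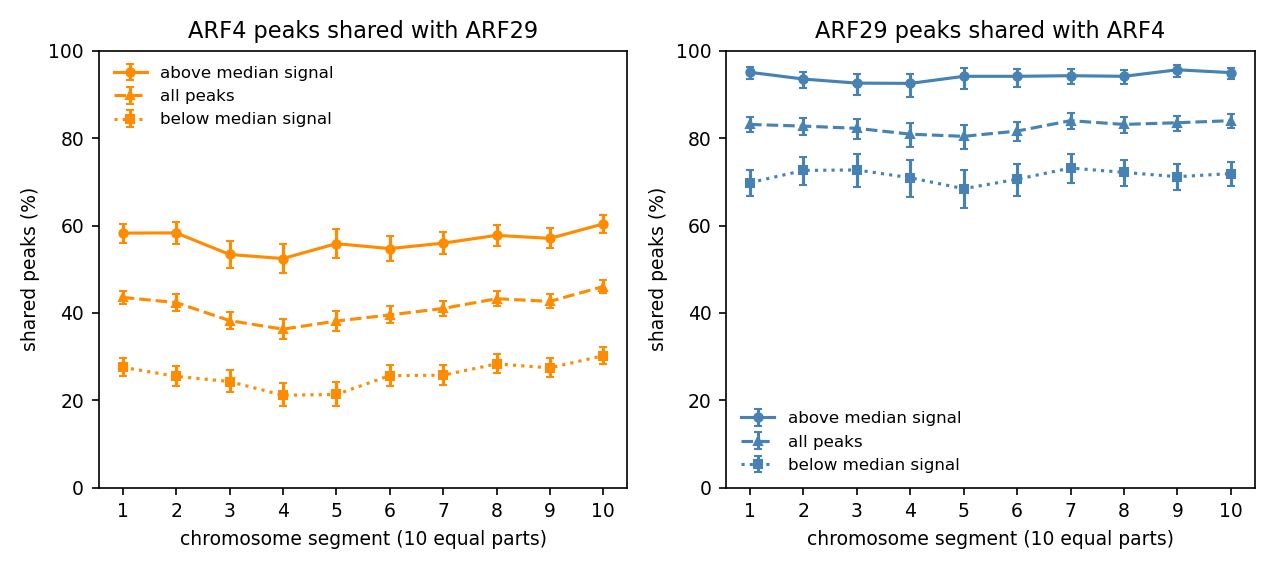
Share of peaks (%) with a partner in the other list in 10 equal segments along the chromosome, with the chromosomes pooled, for ARF4 (left) and ARF29 (right). Lines show all peaks and those above and below the median signal of their list, with 95% Wilson intervals; for all ARF4 peaks the share is 36.3% in the fourth segment and 46.1% in the last, and for ARF29 80.4% to 84.0%.

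The shared portion varied little between chromosomes. It was between 40.4% (38.4–42.5%, chromosome 9) and 43.3% (41.6–45.1%, chromosome 4) for ARF4 peaks, and between 81.4% (79.1–83.5%, chromosome 7) and 84.2% (82.3–85.9%, chromosome 3) for ARF29 peaks, with overlapping intervals at these extremes. ARF4 had 130.02 peaks per 10 Mb on chromosome 6, the fewest, and 148.7 on chromosome 1, the most. ARF29 had 64.0 and 72.7 on the same chromosomes. ARF4-only peaks were between 75.5 (chromosome 4) and 87.4 (chromosome 1) per 10 Mb, and ARF29-only peaks between 10.6 (chromosome 9) and 12.4 (chromosome 5).

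The following regions are given on B73 RefGen v3 as the span of the peaks. Genes and sequence at these positions were not analysed here. They were taken by rank, as the 5 extremes of each kind, so their signals describe the selection. The strongest shared site lay at chr5:136304097-136304301, with 444.9 reads in ARF4 and 1289 in ARF29, summits 4 bp apart and a peak in all 12 other lists. The next were chr5:166138655-166138859 (455.0 reads in ARF4 and 1213 in ARF29) and chr7:172406149-172406354 (431.0 and 855.0), both also in all 12. At chr3:222705985-222706232 (329.0 reads in ARF4 and 925.0 in ARF29) the summits were 47 bp apart and 9 other lists had a peak, and at chr7:2315009-2315213 (358.2 and 704.8) 8 had one. Reads are not comparable between the libraries, and in both lists these sites were above the 99.9th percentile.

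The pairs that ranked far higher in ARF4 were weak but called in ARF29. At chr3:50170310-50170514 ARF4 had 121.9 reads (percentile 95.7) and ARF29 25.8 (percentile 1.46), with summits 4 bp apart and peaks of ARF16, ARF18, ARF27 and ARF34. At chr8:173823654-173823891 ARF4 had 136.2 reads and ARF29 28.6, with peaks of ARF16 and ARF34. The other 3, at chr10:142952254-142952458, chr1:249638927-249639131 and chr1:154682829-154683057, had 114.0 to 138.0 reads in ARF4 and 30.1 to 32.3 in ARF29. All 5 were in ARF34, and none was in any of the 7 more distant lists.

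The 5 pairs that ranked furthest higher in ARF29 were in 5 to 12 other lists, against 1 to 5 for the 5 furthest higher in ARF4. Over all pairs more than 50 percentiles apart the medians were close, at 5 lists for the 297 higher in ARF29 and 4 for the 776 higher in ARF4. At chr6:13811472-13811714 ARF4 had 24.6 reads (percentile 1.397) and ARF29 400.0 (percentile 99.4), with summits 42 bp apart and a peak in all 12 other lists. At chr1:163541867-163542071 ARF4 had 24.9 reads and ARF29 155.0, with 11 other lists, ARF18 being the one without a peak. The other 3, at chr5:5588566-5588770, chr6:122219270-122219496 and chr7:130261616-130261820, had 24.1 to 30.2 reads in ARF4 and 107.0 to 195.0 in ARF29 and were in 5 to 9 other lists. All 5 were in ARF16, ARF27, ARF34 and ARF35.

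The strongest ARF4-only peak, at chr5:144596833-144597033 with 188.3 reads, had an ARF29 summit 104 bp away, just past the limit, and was in ARF10, ARF16, ARF18, ARF27, ARF34 and ARF35. The next were chr2:142853359-142853559 (185.0 reads), chr6:126256894-126257094 (181.0 reads), chr8:22461092-22461292 (169.0 reads) and chr4:2517880-2518080 (166.0 reads). Their nearest ARF29 summits were 3499 to 29957 bp away. All 5 were in ARF10, ARF16 and ARF34, and they were in 4 to 8 of the other lists.

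The strongest ARF29-only peaks were of several kinds. The peaks at chr4:172446792-172446992 (383.0 reads) and chr4:172455382-172455582 (263.0 reads) were otherwise in ARF27 and ARF35 only, and the fifth, chr4:172407731-172407931 (144.0 reads), was in ARF13, ARF16, ARF27 and ARF35. These 3 fell within one stretch of 100 kb, chr4:172400001-172500000, where ARF4 had 2 peaks (29 and 46 reads), ARF29 had 5 (44.0 to 383.0), ARF35 had 20 (31.0 to 688.0), ARF27 had 9 (83.0 to 308.8), and each of the other lists had 0 to 4. The peak of 383.0 reads had a −log10 q of 24.8, the lowest of the 52 ARF29 peaks with 350 to 420 reads, whose median was 96.2. As q weighs the signal against the control library, the significance of this peak was low for its signal. Reads of the control library in this stretch were not analysed here. The peak at chr1:243298698-243298898 (168.0 reads) was in all 12 other lists, with the nearest ARF4 summit 883 bp away. The one at chr1:211317252-211317452 (149.0 reads, −log10 q 35.1) was in none of the other 12, with the nearest ARF4 summit at 3526 bp.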

How the data were processed

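After trimming with trimmomatic, the authors mapped reads to B73 RefGen v3 with Bowtie2 (version 2.2.8 in the submitters' processing notes), filtered them by mapping quality and called peaks per ARF with GEM against the GST-HALO library. Sites in near-identical repeats are thus under-represented. The deposited signal is GEM's read count of a peak, unscaled between libraries. The deposited p-value and q-value columns hold −log10 values, with a smallest −log10 q of 5 and a ceiling of 999. The deposited display score was not used. The study left regions that had a peak in every sample out of some analyses, and a mark in the names of the deposited lists may stand for this, which the labels do not state. The depth of the ARF4 and ARF29 libraries was not known here. Per the labels, the ARF34 and ARF27 libraries were reduced to 15 M and 20 M mapped reads.

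Every peak was 201 bp wide with a central summit, so a summit distance of 100 bp is a reciprocal overlap of 50%, the study's rule. A chromosome's length was taken as the end of its last peak in any of the lists. Named regions were, 1 per merged site, the 5 shared pairs of highest mean percentile, the 5 with the largest percentile difference in each direction, and the 5 strongest ARF4-only and ARF29-only peaks. The lists compared, the named regions' rule and the alternatives were chosen with earlier results of these data known. Groups were the ARFs of the labels. Shares were computed with Python 3.11.15, numpy 2.4.6, scipy 1.17.1 and pandas 2.3.3, plotted with matplotlib 3.10.9, and checked against bedtools 2.31.1 in 78 comparisons, which differed by 0 peaks. The matching was also tested on simulated data.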

Additional observations from a re-analysis of the deposited data

How the results depend on the processing

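Of 72 recomputed values, 21 stayed within the main value's interval or spread, 50 moved beyond it and 1 reversed. The share of ARF4 peaks with an ARF29 partner (41.9%) was 43.1% with any overlap, 31.6% with 90% reciprocal overlap, 43.2% at a −log10 q of at least 10, 57.7% with the ARF4 list at ARF29's length, 59.7% with all lists at the shortest length, 39.8% with 1-to-1 matching, 40.6% without close peaks and 40.6% without sites of all 14 lists. The share of ARF29 peaks (82.9%) was 84.0%, 64.1%, 76.4%, 58.9%, 60.5% and 80.6% under the first 6 of these and 78.8% without sites of all 14 lists. The median percentile of shared minus ARF4-only peaks (31.3) was 29.4 at 90% overlap, 29.5 with ARF4 at ARF29's length and 36.7 ranked by −log10 q, and that of shared minus ARF29-only peaks (33.7) was 23.7, 38.3 and 30.3. The outer-chromosome share of shared minus ARF4-only peaks (3.44 points) was 1.82 for the outer 10%. For ARF29-only peaks (1.45 points) it was −0.019 at a −log10 q of at least 10, a change of sign whose cause was not tested. The ARF4-only peaks in none of the other lists (23.1%) were 21.6% with any overlap, 32.9% at 90% overlap, 18.2% at a −log10 q of at least 10, 42.9% with all lists at the shortest length and 30.8% without ARF34, and the ARF29-only peaks (20.0%) were 25.3%, 14.2%, 29.6% and 26.2% under the last 4. The rho of signal (0.55) was 0.59 at 90% overlap, 0.47 with ARF4 at ARF29's length and 0.47 by −log10 q. Summits 4 bp apart (64.6% of shared ARF29 peaks) were 63.6% at a −log10 q of at least 10, 62.1% with ARF4 at ARF29's length, 66.4% with 1-to-1 matching and 65.7% without close neighbours. The presence of ARF4-only minus ARF29-only peaks in other lists, with alternatives chosen after seeing the data, kept its sign: ARF18 −14.7 points (−28.7 to −14.5), ARF27 −21.3 (−30.9 to −17.4), ARF35 −20.7 (−32.3 to −19.1) and ARF10 13.3 (4.19 to 21.6). The planned count of TGTC around summits was not run, since no genome of the lists' build was used here.

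No pairing of libraries was possible because there was 1 library per ARF. The depth of the ARF4 and ARF29 libraries was not known, so the difference in list length and a difference in sequencing depth cannot be told apart. The shares are those of called peaks, and a site absent from a list was not shown to be unbound.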
